A study of Danio rerio with 20 samples.

Results

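The 5 genes described here encode small cytosolic calcium-binding proteins of the parvalbumin and calbindin families, and were taken by name from the deposited table: pvalb6 and pvalb7 (parvalbumins), calb1 (calbindin), and calb2a and calb2b (calretinins). They are 5 of the 18820 genes of that table, with 1 row each. Single neurons were collected with a glass pipette from the Dc region, the central zone of the dorsal pallium, of Tg(HuC:H2B-GCaMP6f) zebrafish aged 4 to 5 weeks, after conspecific alarm substance (CAS) had been given. The HuC promoter drives the indicator in all neurons and H2B holds it in their nuclei. The 10 synchronized cells had joined the slow calcium oscillation that followed CAS, and the 10 non-synchronized cells had not. Both groups received CAS, so a cell without it was not part of the comparison, and the labels name no fish.

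Parvalbumins, calbindins and calretinins carry EF-hand loops that bind calcium, and they shape the size and duration of calcium signals inside a neuron. In the mammalian cortex, parvalbumin marks fast-spiking GABAergic interneurons, while calbindin and calretinin mark other classes of interneuron and some projection neurons. Zebrafish hold many parvalbumin genes, of which pvalb1 to pvalb4 are abundant in skeletal muscle and pvalb7 is a known marker of the Purkinje cells of the cerebellum.

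Values are CPM, the reads of a gene scaled by all counted reads of its library, and 1 library was taken as 1 cell. Total counts ranged from 795838 to 2493351 in synchronized cells and from 1131532 to 3144155 in non-synchronized cells. A level of 3 counts, the floor used for a count of 0, came to between 1.2 and 3.77 CPM in synchronized cells and between 0.954 and 2.65 CPM in non-synchronized cells. Every library held neuronal transcripts: the sum of 11 neuron genes was 5273 to 14545 CPM in synchronized cells and 6918 to 14263 CPM in non-synchronized cells. Some also held transcripts of other cells, with red blood cell genes up to 11291 CPM in synchronized cells and 14956 CPM in non-synchronized cells, and microglia and leukocyte genes up to 381 and 3501 CPM in the same order of groups. Because no fish is named, each group counts as 1 sample, no test was computed, and every SD is a spread between cells.

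Counts of at least 1 of the 5 genes were found in 4 of the 10 synchronized cells, against 8 of the 10 non-synchronized cells. pvalb7 was the most widely detected, in 8 of the 20 cells, followed by calb2a in 5, pvalb6 in 3, and calb1 and calb2b in 1 each. None of the 5 genes was counted in synchronized cells 5, 6, 16, 20, 21 and 22, nor in non-synchronized cells 5 and 19-1.

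**Figure D1:**
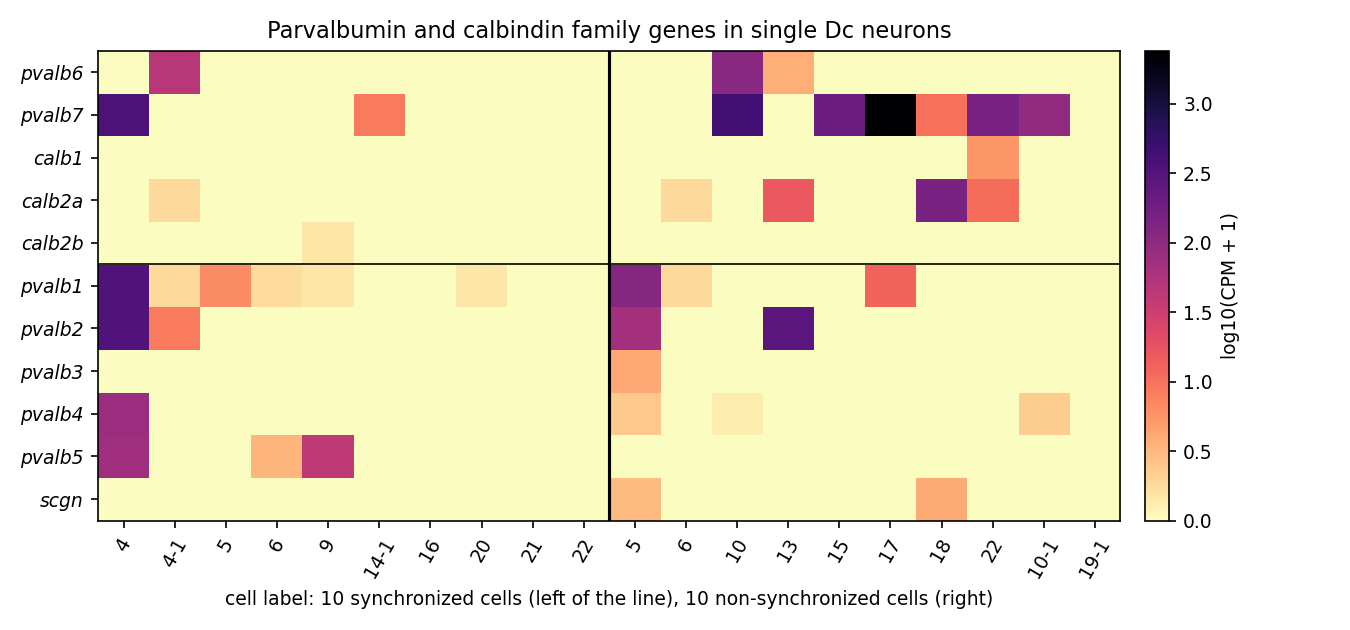
Level of each parvalbumin and calbindin family gene of the table (rows, the 5 genes described here above the horizontal line) in each of the 20 cells (columns, by cell label), shown as log10(CPM + 1). pvalb7 has counts in 2 synchronized cells and 6 non-synchronized cells, while pvalb6, calb1, calb2a and calb2b have counts in 1 to 5 cells over both groups.

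pvalb7 (ENSDARG00000034705) had the higher mean in non-synchronized cells. It was counted in 2 of 10 synchronized cells, with 359 CPM in cell 4 and 7.41 CPM in cell 14-1. In non-synchronized cells it was counted in 6 of 10, with 2398 CPM in cell 17, 449 CPM in cell 10, 197 CPM in cell 15, 146 CPM in cell 22, 93.5 CPM in cell 10-1 and 9.17 CPM in cell 18. The groups overlapped: synchronized cell 4 lay above 4 of the 6 non-synchronized cells with counts, and the remaining 8 synchronized and 4 non-synchronized cells were at 0. The lowest, median and highest values were 0, 0 and 359 CPM in synchronized cells and 0, 51.3 and 2398 CPM in non-synchronized cells.

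The mean of pvalb7 was 36.7 ± 113 CPM in synchronized cells and 329 ± 741 CPM in non-synchronized cells (SD, n = 10 cells each), a log2 ratio of -3.13 after 1 CPM was added to each mean. In both groups the SD was larger than the mean. The share of cells with a count was 20% (2.52% to 55.6%, exact binomial interval) in synchronized and 60% (26.2% to 87.8%) in non-synchronized cells, and these intervals overlap. Over summed reads, pvalb7 took 299 counts in synchronized and 5175 counts in non-synchronized libraries, which in CPM was 14.4-fold (12.8 to 16.3) more in the non-synchronized ones. That last interval comes from reads summed over cells, so it speaks of counting error and not of the spread between cells. No molecular identifiers were used, so it counts reads and not molecules.

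A single cell set much of each group's mean. Cell 4 gave 286 of the 299 synchronized counts, and without it the synchronized mean was 0.824 CPM and the log2 ratio -7.50. Cell 17 gave 3038 of the 5175 non-synchronized counts, and without it the non-synchronized mean was 99.3 CPM and the log2 ratio -1.41. The mean was thus lower in synchronized cells with either cell left out, but its distance varied widely.

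The detection of pvalb7 was uneven for a gene of its mean level. It had counts in 8 of 20 cells, whereas the 1191 genes whose mean CPM lay within 1.5-fold of it had counts in a median of 20 cells (quartiles 19 and 20). Of those genes, 0.588% were counted in as few or fewer cells. The highest cell held 55.5% of all pvalb7 counts, against a median of 17.4% for the highest cell of those genes. The mean used for this match, 183 CPM, was 66.4 CPM without non-synchronized cell 17, so both comparisons depend in part on that cell. When all libraries were thinned to the lowest total, 795838 counts, pvalb7 stayed detected in 2 synchronized and 6 non-synchronized cells in each of 100 draws.

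**Figure D2:**
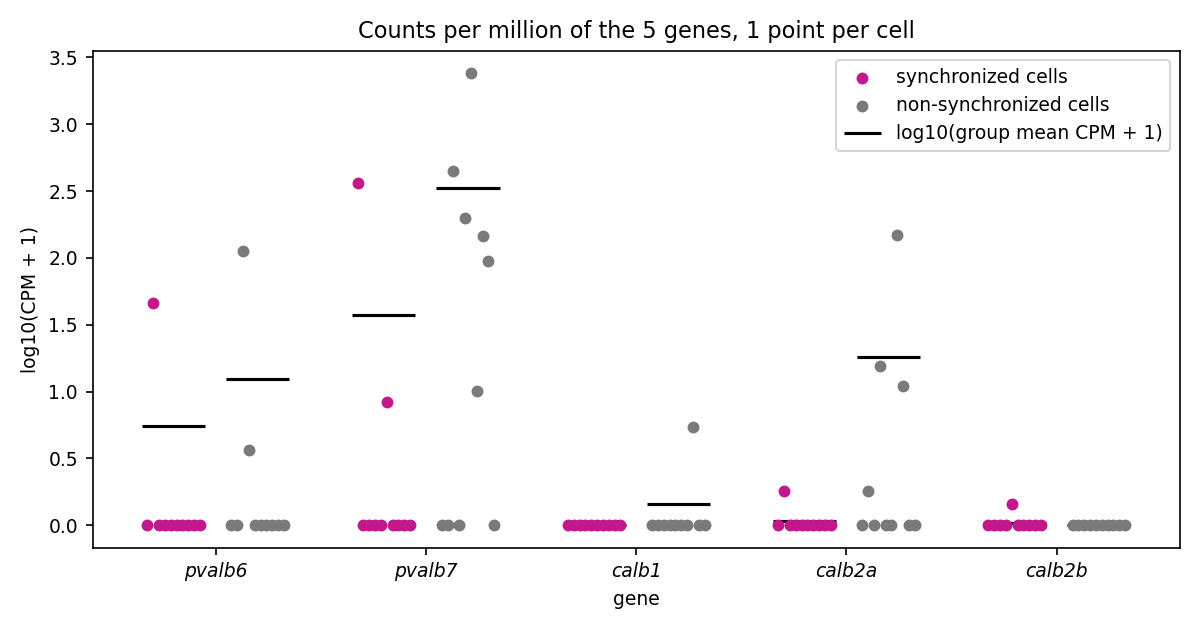
CPM of the 5 genes on a log10(CPM + 1) axis, with 1 point per cell for 10 synchronized cells (left of each pair) and 10 non-synchronized cells (right), and a black line at the group mean. Most points of each gene lie at 0, and the group means of pvalb7, 36.7 and 329 CPM for synchronized and non-synchronized cells, lie well away from the medians of 0 and 51.3 CPM.

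pvalb6 (ENSDARG00000009311, named PVALB in the reference gene names) was counted in 3 cells. Synchronized cell 4-1 had 45.3 CPM (113 counts), while non-synchronized cell 10 had 111 CPM (348 counts) and cell 13 had 2.66 CPM (6 counts). The other 9 synchronized and 8 non-synchronized cells had no count. The mean was 4.53 ± 14.3 CPM in synchronized cells and 11.3 ± 34.9 CPM in non-synchronized cells (SD, n = 10 cells each), a log2 ratio of -1.16. This direction rested on cell 10: without it the non-synchronized mean was 0.295 CPM and the log2 ratio 2.09, while without synchronized cell 4-1 it was -3.62. Genes of like mean CPM were also sparse, with counts in a median of 7 cells over 2339 genes.

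calb2a (ENSDARG00000041062, named CALB2 in the reference) was counted in 5 cells. In synchronized cells only cell 4-1 held it, with 2 counts or 0.802 CPM, below the floor. In non-synchronized cells it had 147 CPM in cell 18 (209 counts), 14.6 CPM in cell 13 (33 counts), 9.93 CPM in cell 22 (18 counts) and 0.801 CPM in cell 6 (2 counts). Cells 18, 13 and 22 thus lay above every synchronized cell, and the other cells of both groups lay within 1 CPM of each other.

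The mean of calb2a was 0.0802 ± 0.254 CPM in synchronized cells and 17.3 ± 46.0 CPM in non-synchronized cells (SD, n = 10 cells each), a log2 ratio of -4.08 that depends on the 1 CPM added. The share of cells with a count was 10% (0.253% to 44.5%) in synchronized and 40% (12.2% to 73.8%) in non-synchronized cells. Summed over libraries, 2 counts stood against 262, a ratio in CPM of 109-fold more in non-synchronized libraries with a counting interval of 29.9 to 907. Without cell 18 the non-synchronized mean was 2.82 CPM and the log2 ratio -1.82.

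The calbindin gene calb1 (ENSDARG00000031598) was counted in non-synchronized cell 22 alone, with 8 counts or 4.41 CPM. No synchronized cell had a count, 0 of 10 cells, which allows a share of up to 30.8%. Set against a floor of 3 counts over all synchronized libraries, the summed level was 2.22-fold higher in non-synchronized libraries. Without the floor, 8 counts against 0 give a ratio with no upper limit, whose counting interval reached down to 1.42-fold. All of the non-synchronized counts came from cell 22. The second calretinin gene, calb2b (ENSDARG00000036344), had a single count, 0.440 CPM, in synchronized cell 9 and none in the 10 non-synchronized cells. No fold is given for it, since both groups lay below the floor.

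Across the whole table, 14404 genes averaged 1 CPM or more over the 20 cells. Of these, 26.7% had a synchronized mean at least 2-fold above the non-synchronized mean, and 23.3% had a non-synchronized mean at least 2-fold above the synchronized one, both with 1 CPM added. Such distances were therefore common among single cells of this kind. Of the 5 genes, 3 passed the minimum of 1 CPM (pvalb6, pvalb7 and calb2a), and in all 3 the non-synchronized mean was at least 2-fold higher. For pvalb6 it was less than 2-fold higher with 10 CPM added (log2 ratio -0.55) or without the top library of each group (-0.37). calb2a passed it through the non-synchronized cells alone, and calb1 and calb2b lay below it. The median log2 ratio of all genes that passed was 0.06.

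**Figure D3:**
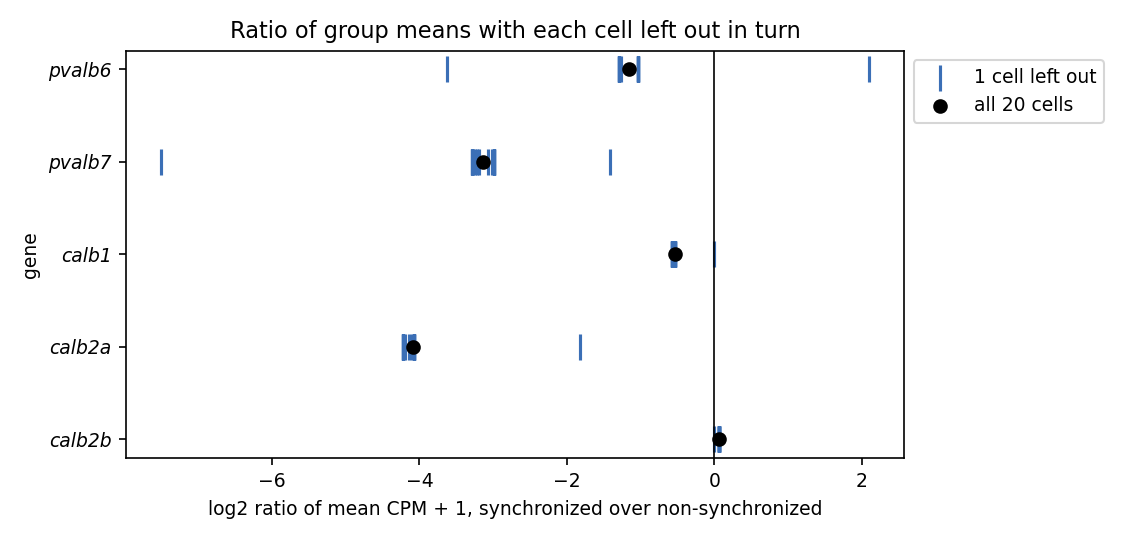
Log2 ratio of the group means, synchronized over non-synchronized with 1 CPM added, for each of the 5 genes from all 20 cells (black points) and with each cell left out in turn (blue ticks). The ticks of pvalb6 reach from -3.62 to 2.09 across the line at 0, and those of pvalb7 from -7.50 to -1.41.

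Of the 12 cells with counts of any of the 5 genes, 7 held 1 of them, 4 held 2 and 1 held 3. pvalb7 and calb2a were both counted in non-synchronized cells 18 and 22, pvalb6 and calb2a in synchronized cell 4-1 and non-synchronized cell 13, and pvalb7 and pvalb6 in non-synchronized cell 10. Non-synchronized cell 22 was the only cell with 3 of the genes, pvalb7, calb1 and calb2a. The cells with the highest levels of pvalb7 and calb2a did not coincide: cell 17, with 2398 CPM of pvalb7, had no calb2a, and cell 18, with 147 CPM of calb2a, had 9.17 CPM of pvalb7.

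The transmitter genes of the cells with counts differed between pvalb7 and calb2a. GABA genes were summed over gad1b and gad2, which make GABA, and slc32a1, which loads it into vesicles. Glutamate genes were summed over the vesicular glutamate transporters slc17a6a, slc17a6b and slc17a7a. Synchronized cell 4, with 359 CPM of pvalb7, had 2.51 CPM of the GABA sum and 635 CPM of the glutamate sum. Synchronized cell 14-1 had 6.27 and 345 CPM of the same sums.

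Among non-synchronized cells, the pvalb7-containing cells fell on both sides. Cell 15 had 3.54 CPM of the GABA sum and 695 CPM of the glutamate sum, and cell 10-1 had 0.414 and 312 CPM. Cells 18 and 22 had the opposite balance, with 3030 and 579 CPM of the GABA sum and 0 and 60.1 CPM of the glutamate sum. Cell 17, with the most pvalb7, had 59.2 CPM of the GABA sum and 88.4 CPM of the glutamate sum, and cell 10 had 2.86 and 67.4 CPM. Over the 20 cells, pvalb7 correlated weakly with either sum (Pearson -0.14 with the GABA sum and -0.16 with the glutamate sum, on log2(CPM + 10) values), which is no finding in counts this sparse.

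calb2a was counted only in cells with GABA genes. The GABA sum was 683 CPM in synchronized cell 4-1, and 3030, 750, 579 and 2990 CPM in non-synchronized cells 18, 13, 22 and 6. The only other cell with a GABA sum of that size was non-synchronized cell 5, with 4424 CPM and no calb2a. Over the 20 cells, calb2a had a Pearson correlation of 0.55 with the GABA sum and -0.64 with the glutamate sum (Spearman 0.65 and -0.54). These are descriptions over cells that share groups, depth and possibly fish, and the same 5 cells carry them.

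**Figure D4:**
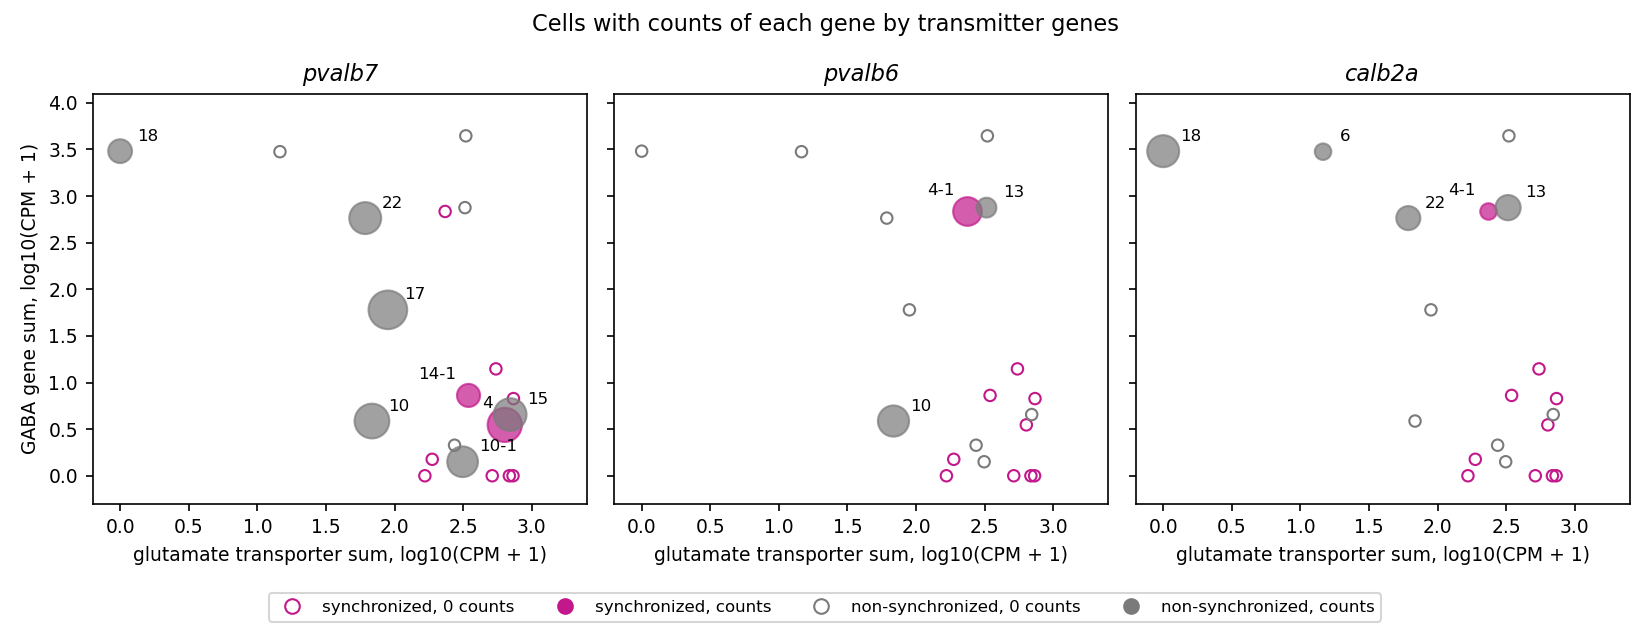
Each of the 20 cells by its summed glutamate transporter genes (x axis) and GABA genes (y axis), both as log10(CPM + 1), in a panel each for pvalb7, pvalb6 and calb2a. Filled and labelled points are cells with counts of that gene, larger at higher CPM; those of calb2a all lie at a GABA sum of 579 CPM or more, while those of pvalb7 spread from 0.414 to 3030 CPM.

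The pvalb6-containing cells were also mixed. Synchronized cell 4-1 had GABA genes (683 CPM) beside 233 CPM of the glutamate sum, as did non-synchronized cell 13 with 750 and 325 CPM. Non-synchronized cell 10, with the most pvalb6, had low values of both, 2.86 and 67.4 CPM. The lone calb1-containing cell, non-synchronized cell 22, had 579 CPM of the GABA sum, and the lone calb2b-containing cell, synchronized cell 9, had 734 CPM of the glutamate sum.

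The GABA and interneuron genes as lists lay on the same side as pvalb7 and calb2a. Of 5 measured GABA genes, all had the higher mean in non-synchronized cells, 4 of them at least 2-fold, with a median log2 ratio of -3.34. Of 23 measured interneuron peptides and transcription factors, 18 had the higher mean in non-synchronized cells and 17 of these were at least 2-fold apart, with a median log2 ratio of -3.23. Several of the 23, among them sst1.1, npy, lhx6 and dlx2b, passed the minimum of 1 CPM through the non-synchronized cells alone. Their direction followed from that filter, so the count and median of this list are no separate result. Of 3 measured vesicular glutamate transporters, all had the higher mean in synchronized cells, with a median log2 ratio of 1.63, but under upper-quartile scaling 2 of 3 did and slc17a6a turned to -0.87. The lists were assembled with earlier results of these data known. Over all 14404 genes, 51.9% had the higher mean in synchronized and 48.1% in non-synchronized cells. At least 2-fold apart were 26.7% and 23.3% of them in the same order.

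The interneuron genes sst1.1, dlx2b and npy, named by size of difference, passed the minimum mean of 10 CPM through non-synchronized cells alone. Being highest there followed from that choice, and their counts lay mostly in cells with calb2a. sst1.1, a somatostatin gene that marks a class of interneuron, reached 6239 CPM in cell 18, 5329 CPM in cell 22 and 401 CPM in cell 13, and was at most 1.00 CPM in every other cell. Its means were 0.147 ± 0.335 CPM in synchronized cells, against 1197 ± 2430 CPM in non-synchronized cells, or 637 CPM without cell 18. dlx2b, a homeobox gene of developing GABAergic neurons, had 274 CPM in cell 6, 250 CPM in cell 18, 45.8 CPM in cell 22 and 0.443 CPM in cell 13 among non-synchronized cells, and 2.41 CPM in synchronized cell 4-1, so all 5 calb2a-containing cells held it. Non-synchronized cell 10, with 32.4 CPM of dlx2b, had no calb2a. A second somatostatin gene, sst6, lay on the other side, with 62.3, 53.4, 25.4 and 7.90 CPM in synchronized cells 6, 22, 21 and 20 and no counts in non-synchronized cells, and none of these 4 cells held any of the 5 genes. npy, the neuropeptide Y gene, was listed in non-synchronized cells 18 (2179 CPM) and 13 (6.20 CPM) only.

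The genes with the pattern most like calb2a were searched among 9027 named genes that averaged 10 CPM or more and were counted in 5 cells or more. By Pearson correlation of log2(CPM + 10) over 20 cells they were lhx6 (0.99), cort (0.91) and stk3 (0.90). lhx6, a LIM homeobox gene of somatostatin and parvalbumin interneurons in mammals, had 326 CPM in non-synchronized cell 18, 21 CPM in cell 22 and 9.29 CPM in cell 13, and at most 1.57 CPM elsewhere. cort, a gene of the cortistatin and somatostatin family, had 6656 CPM in cell 18, 1239 CPM in cell 22 and 517 CPM in cell 13, and at most 0.502 CPM elsewhere. stk3, a kinase of the Hippo pathway, had 148 CPM in cell 18, 23.9 CPM in cell 13 and 19.7 CPM in synchronized cell 4-1, and at most 3.08 CPM elsewhere.

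The likeness rested on few cells. With Spearman's rank correlation the first 3 genes were dlx2b (0.86), sox2 (0.84) and dlx2a (0.83), and none of the Pearson 3 was among them. Both measures rest on the same 5 cells with counts of calb2a, Pearson by their size and Spearman by their order. By size, synchronized cell 4-1 and non-synchronized cell 6, at 0.802 and 0.801 CPM, added little beside non-synchronized cells 18, 13 and 22. lhx6, cort and stk3 were each counted in 3 of the 5 cells.

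For pvalb7 the first 3 genes by Pearson correlation were RAMP1 (0.80), btbd3b (0.78) and gpr26 (0.78). RAMP1, a partner of calcitonin-type receptors, had 257 CPM in non-synchronized cell 17, 193 CPM in cell 10, 150 CPM in cell 22, 63.7 CPM in cell 10-1 and 29.2 CPM in cell 15. It was also counted without pvalb7, with 53.9 CPM in synchronized cell 20. gpr26, an orphan G protein-coupled receptor, was counted only in cells that held pvalb7: 17.6 CPM in synchronized cell 4, and 281, 91.6, 4.41, 2.65 and 0.414 CPM in non-synchronized cells 10, 17, 22, 15 and 10-1.

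btbd3b, a gene of the BTB domain family, was highest in non-synchronized cell 10 (233 CPM), synchronized cell 4 (71.6 CPM) and non-synchronized cell 17 (56.8 CPM), all 3 with at least 359 CPM of pvalb7. By Spearman's rank correlation the first 3 were gpr26 (0.91), dnah3 (0.86) and tespa1 (0.80), so gpr26 was the 1 gene in both sets.

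**Figure D5:**
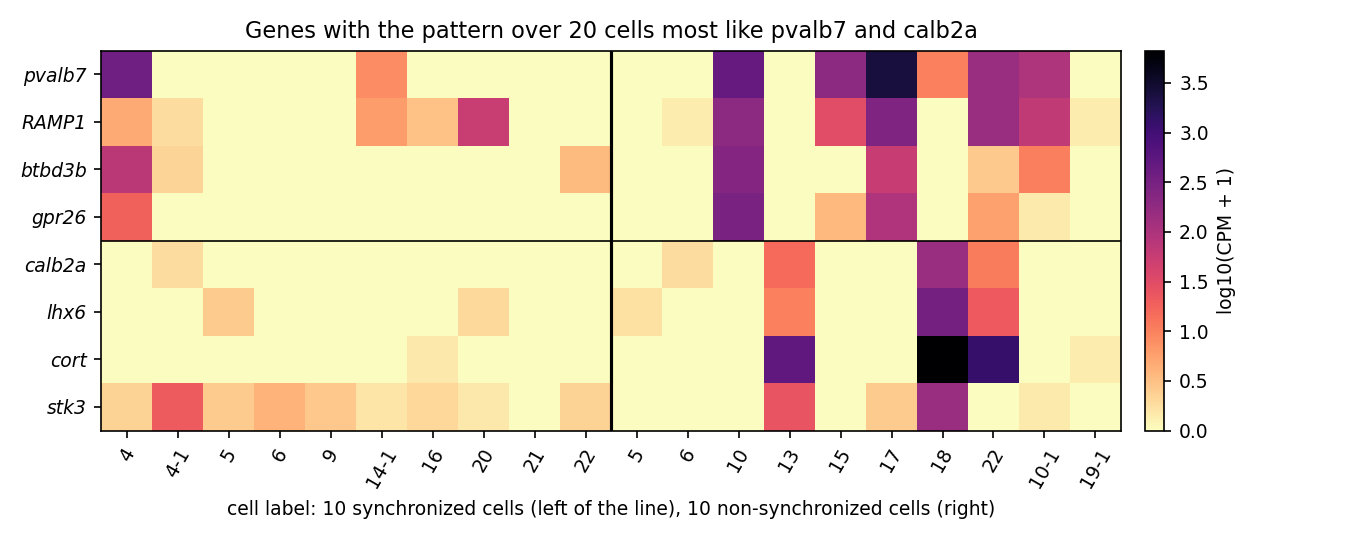
Level as log10(CPM + 1) of pvalb7 and calb2a and of the 3 genes with the highest Pearson correlation to each over 20 cells (rows), in each cell (columns, by cell label). The upper block shares its counts mainly in non-synchronized cells 10 and 17, and the lower block in non-synchronized cells 13, 18 and 22.

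Since pvalb7 is known from Purkinje cells, their genes were read beside it. Of 12 listed genes 7 were found, with a sum of 318 to 1724 CPM in synchronized cells, against 231 to 4689 CPM in non-synchronized cells. Non-synchronized cell 17 had the highest sum, of which 3895 CPM was pcp4a, a calmodulin regulator also made in other neurons. ca8, a gene that defines Purkinje cells, was at 0 in 7 of the 8 pvalb7-containing cells, with 24.8 CPM in non-synchronized cell 22, whereas it reached 134 CPM in synchronized cell 9, which had no pvalb7. itpr1b, a calcium release channel gene, was counted in all 8, with 701 and 361 CPM in synchronized cells 4 and 14-1, and 345, 250, 222, 141, 51.3 and 32.5 CPM in non-synchronized cells 15, 22, 10, 10-1, 17 and 18. Cells without pvalb7 had up to 229 CPM of it in synchronized cell 9 and up to 115 CPM in non-synchronized cell 13. rorab, a nuclear receptor gene, had 994 and 740 CPM in non-synchronized cells 10 and 17, but also 752 CPM in synchronized cell 22, which had no pvalb7. The part of Purkinje cell RNA in the pvalb7 counts was not tested. Over the 20 cells the sum and pvalb7 had a Pearson correlation of 0.62.

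Muscle was the other tissue to read beside the parvalbumins. The remaining family members of the table were counted in part in the same cells. Of the 4 cells with pvalb4, 3 held pvalb7, but non-synchronized cells 10 and 10-1 had only 1 and 3 counts of pvalb4. pvalb7 was held by 2 of the 9 cells with pvalb1 and 1 of the 4 cells with pvalb2. Of the 3 cells with pvalb6, 2 held pvalb2 and 1 held pvalb1. pvalb1 had 328 CPM in synchronized cell 4 and 121 CPM in non-synchronized cell 5, with at most 11.8 CPM in 7 further cells. pvalb2 had 329 CPM in synchronized cell 4, 269 CPM in non-synchronized cell 13, 65.9 CPM in non-synchronized cell 5 and 7.62 CPM in synchronized cell 4-1. pvalb4 had 79.2 CPM in synchronized cell 4 and at most 1.37 CPM elsewhere, and pvalb3 had 3.09 CPM in non-synchronized cell 5 alone.

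pvalb5 was counted in synchronized cells only, with 72.9 CPM in cell 4, 41.0 CPM in cell 9 and 2.31 CPM in cell 6. Secretagogin (scgn), a relative of the calbindins, had 2.06 CPM in non-synchronized cell 5 and 2.82 CPM in cell 18. Of 18 family names listed, 11 were found in the table. In the reference gene order pvalb1, pvalb4 and pvalb5 are neighbours, as are pvalb2 and pvalb3, whereas pvalb6 and pvalb7 lie apart from them and from each other.

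The cells with most of pvalb1 to pvalb4 were also rich in other muscle transcripts. A sum of 7 skeletal muscle genes without parvalbumins, among them actc1b, mylpfa and ckmb, was 628 CPM in synchronized cell 4, 452 CPM in non-synchronized cell 5 and 287 CPM in non-synchronized cell 13. The medians of that sum were 6.08 CPM in synchronized cells, against 6.91 CPM in non-synchronized cells. Synchronized cell 4 is the same cell that carried nearly all synchronized pvalb7. In non-synchronized cells pvalb7 was also present where the muscle sum was low, at 6.31 CPM in cell 17, 30.5 CPM in cell 10, 0.414 CPM in cell 10-1 and 0 in cells 18 and 22, while cell 15 had 117 CPM. Without the 5 libraries over 100 CPM of the muscle sum, chosen after seeing the data, the pvalb7 means were 0.927 CPM in synchronized cells, against 442 CPM in non-synchronized cells and the log2 ratio was -7.85; the part of muscle RNA in synchronized cell 4 was not tested.

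Transcripts of blood or immune cells were high in the cells with calb2a, but also in some cells without it. All 5 calb2a-containing cells were among the 8 libraries with over 1000 CPM of red blood cell genes or of microglia and leukocyte genes. Every cell with a GABA sum of 579 CPM or more was also among these 8 libraries, non-synchronized cell 5 included. Red blood cell genes summed to 1630 CPM in synchronized cell 4-1, and to 14956 CPM in non-synchronized cell 6 and 1216 CPM in cell 18. Microglia and leukocyte genes summed to 3501 CPM in non-synchronized cell 13 and 2968 CPM in cell 22. In cells without calb2a, red blood cell genes reached 11291 CPM in synchronized cell 5 and 6747 CPM in non-synchronized cell 5. Microglia and leukocyte genes reached 1471 CPM in non-synchronized cell 19-1, also without calb2a. Over the 20 cells calb2a had a Pearson correlation of 0.16 with each of these sums. Spearman's correlation was 0.32 with the microglia and leukocyte sum and 0.34 with the red blood cell sum. Of the 8 libraries, 2 were synchronized and 6 non-synchronized, and without them calb2a was at 0 in all 8 synchronized and 4 non-synchronized cells that remained. The part of these cells' RNA in the calb2a counts was not tested.

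Radial glia genes were read beside calb2a as well. Their sum over 12 genes was 897 CPM in synchronized cell 4-1, and 1889, 1347, 702 and 587 CPM in non-synchronized cells 18, 22, 13 and 6, beside medians of 416 CPM in synchronized cells, against 566 CPM in non-synchronized cells. Cells without calb2a reached 967 CPM in synchronized cell 22, above 3 of the 5 cells with it, and 587 CPM in non-synchronized cell 17. sox2, one of the 12, was among the genes most like calb2a by rank. gfap and slc1a3b, also of the 12, were at 0 in all 5 calb2a-containing cells, but also in most other cells. Their highest values were 33.0 CPM of gfap in synchronized cell 20 and 8.18 CPM of slc1a3b in synchronized cell 21. fabp7a, another of the 12, had 422 CPM in synchronized cell 4-1. In non-synchronized cells 18, 6, 13 and 22 it had 1026, 400, 170 and 14.3 CPM. Non-synchronized cell 17, without calb2a, had 405 CPM of fabp7a. The part of glial RNA in the calb2a counts was not tested. Over the 20 cells the radial glia sum had a Pearson correlation of 0.65 with calb2a and -0.07 with pvalb7.

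Other calcium-binding genes lay on both sides, and their measured genes had counts in a median of 9.5 to 20 cells per list. The shares at least 2-fold higher over all measured genes were 26.7% in synchronized and 23.3% in non-synchronized cells. Of 14 measured neuronal calcium sensors, 7 had the higher mean in synchronized cells and 7 in non-synchronized cells, with 2 and 6 at least 2-fold apart. Of the 6, rcvrn3, guca1a and ncaldb passed the minimum of 1 CPM through the non-synchronized cells alone. Of the 2, kcnip3b passed it through synchronized cell 5 alone (26.7 CPM). Their direction followed from that filter, so the 2-fold counts are no separate result. The median log2 ratio of the list was -0.20, and under upper-quartile scaling the split was 2 and 12. The 2 copies of neuronal calcium sensor 1 lay on opposite sides: ncs1a averaged 25.8 ± 30.8 CPM in synchronized cells, against 3.73 ± 7.34 CPM in non-synchronized cells, and ncs1b 11 ± 28.9 CPM in synchronized cells, against 69.2 ± 87.9 CPM in non-synchronized cells (SD, n = 10 cells each). Single cells weighed on both: without cell 22 the synchronized mean of ncs1b was 1.99 CPM, and without cell 13 the non-synchronized mean of ncs1a was 1.89 CPM. hpca, the gene of hippocalcin, averaged 35.6 ± 99.5 CPM in synchronized cells, against 97.1 ± 131 CPM in non-synchronized cells, and its synchronized mean was 4.13 CPM without cell 4-1. kcnip1b, a subunit of A-type potassium channels, averaged 314 ± 298 CPM in synchronized cells, against 176 ± 150 CPM in non-synchronized cells, a direction that turned under upper-quartile scaling (log2 ratio -1.04).

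Calmodulin, the shared calcium sensor of all cells, was counted in every cell, unlike the 5 genes. calm1b averaged 1621 ± 501 CPM in synchronized cells, against 2294 ± 842 CPM in non-synchronized cells. Of 10 measured calmodulin and calmodulin-like genes, 3 had the higher mean in synchronized and 7 in non-synchronized cells, with 2 on each side at least 2-fold apart. On the non-synchronized side these were cabp1a and cabp7b. No synchronized cell had a count of cabp7b, which passed the minimum of 1 CPM through the non-synchronized cells alone, so its direction followed from that filter. Those 2 in synchronized cells were the calneurons, relatives of calmodulin in neurons: caln1 averaged 45.2 ± 39.3 CPM in synchronized cells, against 6.59 ± 11.7 CPM in non-synchronized cells, and caln2 148 ± 132 and 64.9 ± 100 CPM in the same order of groups. Their non-synchronized means were 3.18 CPM without cell 10-1 for caln1 and 41.4 CPM without cell 19-1 for caln2.

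Among 24 measured other cytosolic EF-hand genes, 13 had the higher mean in synchronized and 11 in non-synchronized cells, 9 and 6 of them at least 2-fold apart. Of the 9, s100b, icn2 and cib1 passed the minimum of 1 CPM through the synchronized cells alone. Their direction followed from that filter, so the 2-fold counts are no separate result. The median log2 ratio of the list was 0.44, and -0.11 under upper-quartile scaling. necab2, a neuronal EF-hand gene, averaged 82.0 ± 112 CPM in synchronized cells, against 292 ± 432 CPM in non-synchronized cells, and was highest in non-synchronized cells 18 (1129 CPM), 10 (895 CPM) and 17 (640 CPM), which also held pvalb7. Of the other pvalb7-containing cells, non-synchronized cell 22 had 221 CPM, while synchronized cells 4 and 14-1 had 1.26 and 1.14 CPM and non-synchronized cells 10-1 and 15 had 2.07 and 0.884 CPM. Synchronized cells 16 and 4-1, without pvalb7, had 304 and 251 CPM of necab2. sri, the gene of sorcin, averaged 44.8 ± 106 CPM in synchronized cells, against 6.59 ± 10.4 CPM in non-synchronized cells, with a synchronized mean of 11.6 CPM without its highest cell. Calcium-binding genes of the endoplasmic reticulum and Golgi were evenly placed, with 7 of 13 higher in synchronized and 6 in non-synchronized cells. Their median log2 ratio was 0.01, and it was -0.11 under TMM, -0.16 under poscounts and -0.93 under upper-quartile scaling. Among them, rcn1 passed the minimum of 1 CPM through the synchronized cells alone and calub through the non-synchronized cells alone, which set their direction. nucb1, a nucleobindin of the Golgi, averaged 279 ± 182 CPM in synchronized cells, against 132 ± 87.3 CPM in non-synchronized cells, whereas nucb2b averaged 2.12 ± 5.90 and 36 ± 56.9 CPM in the same order of groups, and leaving out cell 4 put its synchronized mean at 0.266 CPM.

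Kv3 potassium channels, which with parvalbumin mark fast-spiking neurons in mammals, were counted in cells with and without pvalb7. kcnc1a averaged 219 ± 121 CPM in synchronized cells, against 153 ± 212 CPM in non-synchronized cells, or 88.7 CPM without cell 10. In the cells with pvalb7 its level was 362 CPM in synchronized cell 4 and 341 CPM in synchronized cell 14-1, and 733, 181, 162, 118, 64.7 and 40.7 CPM in non-synchronized cells 10, 10-1, 22, 18, 17 and 15. Cells without pvalb7 ranged from 0 CPM of kcnc1a in non-synchronized cell 6 to 347 CPM in synchronized cell 9. kcnc2, named after its values were seen, was low and counted mostly in cells with pvalb7. It had 33.4, 13.4, 8.83, 7.06, 2.65 and 0.414 CPM in non-synchronized cells 10, 17, 22, 18, 15 and 10-1. In synchronized cells it had 2.51 CPM in cell 4 and 14.8 CPM in cell 4-1, the latter without pvalb7, and none in cell 14-1. kcnc3a averaged 27.2 ± 24.8 CPM in synchronized cells, against 94.5 ± 284 CPM in non-synchronized cells, but cell 15 alone had 901 CPM, and the non-synchronized mean without it was 4.84 CPM. Of 6 measured Kv3 genes, 2 had the higher mean in synchronized and 4 in non-synchronized cells, beside 51.9% and 48.1% of all measured genes. kcnc3a was among the 4 through cell 15 alone. The median log2 ratio of the list was -0.69, beside 0.06 over all measured genes.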

How the data were processed

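Single synchronized or non-synchronized Dc neurons gave 10 libraries each, sequenced by the authors as 75 bp read pairs. The deposited values were unnormalized read counts of 18820 genes. The submitters' processing notes name danRer11 and edgeR 3.14.0. The aligner and the counter were not given in the sources used here. Groups came from the sample labels. The study called genes at an unadjusted p from edgeR; here no test was run, since the labels name no fish and each group was taken as 1 sample.

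CPM were computed from the deposited counts and the library total. A gene was detected with at least 1 count and measured with a mean of at least 1 CPM over 20 libraries. The log2 ratio is synchronized over non-synchronized mean with 1 CPM added. Intervals are exact at 95% (Clopper-Pearson for shares of cells, conditional binomial for ratios of summed counts, covering counting error only), and the floor was 3 counts. The 5 genes and 9 gene lists (156 genes, of which 34 were not found by symbol) were chosen with earlier results of these data known. Other named genes were all family rows, 6 transmitter genes, and the 3 genes most like each member with counts in at least 5 cells. Up to 4 measured genes per list with the largest log2 ratio, among those with a mean of at least 10 CPM, were also named (some are not described). All remaining genes, such as marker, peptide and Spearman genes, were named after their values were seen. Levels were not compared between genes, as no transcript lengths were used here. Gene names and gene order came from the reference tables (GRCz12tu), in which 17910 IDs occurred. Alternatives were TMM, upper-quartile and poscounts scaling, other added CPM, summed counts, medians, means of logs, 5 counts for detection, thinning in 100 draws, and libraries left out; leaving out muscle-rich libraries or the top library of each group was chosen after seeing the data. Scripts were checked on simulated data. Scaling factors came from edgeR 4.0.16 and DESeq2 1.42.0 in R 4.3.3, and all else from Python 3.11.15 with scipy 1.17.1, pandas 2.3.3, numpy 2.4.6 and matplotlib 3.10.9.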

Additional observations from a re-analysis of the deposited data

Results flagged for a closer look

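In each of the 8 combinations of gene and group with any counts, the highest cell stood apart from the rest by more than Dixon's 95% limit for 10 values. For normal values chance gives about 1 in 20, but these values are mostly 0 and skewed, so a gap of this kind is common for sparse genes. Where only 1 cell had counts the gap was certain, as for pvalb6, calb2a and calb2b in synchronized and calb1 in non-synchronized cells. For pvalb6 the cells were synchronized 4-1 (45.3 CPM) and non-synchronized 10 (111 CPM), and for pvalb7 synchronized 4 (359 CPM) and non-synchronized 17 (2398 CPM). For calb2a they were synchronized 4-1 (0.802 CPM) and non-synchronized 18 (147 CPM). calb1 had non-synchronized 22 (4.41 CPM) and calb2b synchronized 9 (0.440 CPM), each the only cell with counts. The 2 combinations without counts, calb1 in synchronized and calb2b in non-synchronized cells, had no range.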

How the results depend on the processing

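With each cell left out in turn the log2 ratio of pvalb6 ranged from -3.62 to 2.09, and only leaving out non-synchronized cell 10 turned it round; that of pvalb7 ranged from -7.50 to -1.41 and that of calb2a from -4.23 to -1.82. Without the 8 libraries rich in microglia or red blood cell genes the log2 ratio was -4.84 for pvalb6 and 0 for calb2a, which then had no counts. Without the 4 libraries with a label ending in -1 it was -3.92 for pvalb6. Without the muscle-rich libraries it was -7.85 for pvalb7, and without the top library of each group -1.93 for calb2a and -0.37 for pvalb6, both chosen after seeing the data. With 10 CPM added the log2 ratio was -1.44 for calb2a and -0.55 for pvalb6, and the difference of mean log2(CPM + 10) was -0.63 and -0.15, since a larger added value shrinks the ratio of a low gene. Over the genes measured, the median log2 ratio was 0.06, and it was -0.06 under TMM, -0.16 under poscounts and -0.76 under upper-quartile scaling. Under upper-quartile scaling 3154 genes were at least 2-fold higher in synchronized and 6485 (45.9%) in non-synchronized cells, and with a minimum of 10 CPM 1761 and 1724 were. pvalb6, pvalb7 and calb2a kept a higher non-synchronized mean under each scaling, with log2 ratios of -1.65, -4.17 and -4.18 under upper-quartile scaling, further from 0 than its median. With 5 counts for detection, calb2a was counted in 3 cells and calb2b in 0. No paired analysis was possible because the result comes from no test and label numbers are not stated to mark a shared fish or day. Depth limited calb2b and the lowest calb2a values, which lay under 3 counts per library, and with 10 cells a group a share of 0 allows up to 30.8%.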

Other observations

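Calcium sensors of photoreceptors were highest in non-synchronized cell 13, which also held calb2a and pvalb6. There, rcvrn3 had 186 CPM, rcvrna 157 CPM and guca1a 81.9 CPM, genes of the recoverin family and of a guanylate cyclase activator of the retina. rcvrn3 and guca1a were at 0 in the other 19 cells, and rcvrna had 20.9 CPM in synchronized cell 20 and 11.6 CPM in non-synchronized cell 10-1. Non-synchronized cell 13 was also the library with the highest sum of microglia and leukocyte genes, 3501 CPM, and the part of other cells' RNA in these counts was not tested. These genes were singled out after their values were seen.

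The substance P gene tac1 was counted beside pvalb6 and pvalb7. It had 2297 CPM in synchronized cell 4-1, the synchronized cell with pvalb6, and 384, 373, 217, 181 and 18.6 CPM in non-synchronized cells 17, 10, 18, 22 and 15, all of which held pvalb7. Synchronized cell 4 and non-synchronized cell 10-1, which also held pvalb7, had 3.77 and 0.827 CPM of tac1, and synchronized cell 14-1 had none. Non-synchronized cell 13, which held pvalb6, had no tac1 either. Non-synchronized cell 19-1 had 0.376 CPM of tac1 and neither pvalb6 nor pvalb7.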
